A study of Mus musculus with 12 samples.

Results

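The red cell genes were listed as Hba-a1, Hbb-b1, Hbb-b2, Alas2, Slc4a1, Klf1 and Tfrc, and every probe that the array's annotation gives to one of these symbols was taken. The annotation named 6 of the 7 genes with 1 probe each, so 6 of 46114 probes are described, and Hbb-b1 was skipped. The samples were atria of 12 male mice, hybridised to Illumina Sentrix Mouse-6 beadchips, on which oligonucleotide probes on beads read the level of each transcript. The 6 Tbx3 mice (Cre4-CT) carried the transgene Nppa-Cre4, which makes Cre recombinase in atrial muscle, and the CT transgene, from which Cre activates the T-box factor Tbx3. The 6 Control mice (Cre4) carried Nppa-Cre4 alone, so no group carried CT without Cre. The labels state no ages, and each sample is labelled as a biological replicate. The question was whether the red cell genes differed between the groups, whether they moved together from array to array, and which arrays carried them.

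Mouse red cells lose their nucleus before they enter the blood, but the youngest ones, the reticulocytes, still hold the messenger RNA made by their nucleated precursors. Most of that RNA encodes the alpha and beta chains of haemoglobin, the oxygen carrier. Hba-a1 encodes an adult alpha chain and Hbb-b2 an adult beta chain. Alas2 encodes the erythroid form of the enzyme that starts haem synthesis, and Slc4a1 encodes band 3, the anion exchanger of the red cell membrane. Klf1 is the transcription factor that activates adult beta-globin and many other genes in red cell precursors. Tfrc, the transferrin receptor, brings iron into red cell precursors but also into heart muscle and many other cells. Blood that stays in a dissected heart chamber therefore adds to its RNA. In bulk tissue such as this, fewer cells of a type and less RNA per cell cannot be told apart.

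The stretches of 150 bases before the start of the genes are shown because several members moved together, and to set them beside the 2 that did not, Klf1 and Tfrc. They come from RefSeq on GRCm38.p6, which held promoters for 4 of the 6 members, and Hbb-bs and Hbb-bt are added as the adult beta-globin genes of that assembly. Each is written 5′ to 3′ on the strand of its gene, with matches to 4 motifs in capitals. The motifs, searched on both strands, were the GATA motif, the CACC motif (spelled CCNCNCCC, the kind bound by Klf1), the TATA motif (TATAA) and the CCAAT motif. The GATA motif was AGATA or TGATA followed by A or G. The letters of the TATA motif were chosen after the sequences were seen. Overlapping matches of a motif were each counted.
Hba-a1 (chr11:32283522-32283671, + strand): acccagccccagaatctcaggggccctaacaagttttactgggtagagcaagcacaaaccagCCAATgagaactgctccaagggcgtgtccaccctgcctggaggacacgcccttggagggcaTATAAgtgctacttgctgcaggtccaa
Hbb-bs (chr7:103827929-103828078, - strand): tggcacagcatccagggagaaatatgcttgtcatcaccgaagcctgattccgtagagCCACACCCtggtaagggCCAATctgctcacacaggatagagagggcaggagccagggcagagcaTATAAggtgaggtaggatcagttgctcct
Hbb-bt (chr7:103813924-103814073, - strand): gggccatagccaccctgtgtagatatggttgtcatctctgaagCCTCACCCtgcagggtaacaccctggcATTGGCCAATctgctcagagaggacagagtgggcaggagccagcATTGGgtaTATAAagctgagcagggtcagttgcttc
Alas2 (chrX:150547267-150547416, + strand): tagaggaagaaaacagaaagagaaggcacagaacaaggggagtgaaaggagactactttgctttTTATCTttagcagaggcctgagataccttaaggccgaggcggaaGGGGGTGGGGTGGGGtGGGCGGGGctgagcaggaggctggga
Klf1 (chr8:84901832-84901981, + strand): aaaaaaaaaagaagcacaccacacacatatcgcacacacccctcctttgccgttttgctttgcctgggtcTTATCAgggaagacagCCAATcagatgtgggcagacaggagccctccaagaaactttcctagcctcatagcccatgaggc
Tfrc (chr16:32608746-32608895, + strand): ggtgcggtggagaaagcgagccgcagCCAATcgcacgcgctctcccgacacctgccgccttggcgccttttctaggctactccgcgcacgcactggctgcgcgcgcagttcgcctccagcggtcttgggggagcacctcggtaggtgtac
The 3 globin promoters each held the TATA motif, beginning at positions -27, -29 and -28 in Hba-a1, Hbb-bs and Hbb-bt, counted from -1 at the base before the start, and each held the CCAAT motif. The TATA motif occurred in 14.2% and CCAAT in 24.5% of the 32851 promoters of the RefSeq table over the same window. The CACC motif, in 38.1% of promoters, was found in Hbb-bs, Hbb-bt and Alas2, with 4 overlapping or adjacent matches in Alas2. The GATA motif, in 16% of promoters, was found in Alas2 and Klf1, on the opposite strand in both. The Tfrc stretch, which belongs to the more upstream of its 2 starts in the table, held CCAAT alone. A match is a description of letters, not a bound site.

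Over the whole series, 46114 distinct probes had a value on every array, the number of arrays limits the precision, and levels are given as log2 after quantile normalization. Correlations between arrays over all probes ran from 0.963 to 0.98, and Control 4 had the lowest mean correlation with the others, 0.968. Its atrial markers were not low: the mean level of 9 atrial muscle genes was 12.46 there and ran from 12.29 to 12.46 in Control and from 11.72 to 12.11 in Tbx3. Of those 9 genes, 7 lay above the 99th percentile of brightness, so the labelled tissue showed its markers. Of 2 probes annotated to Tbx3, the brighter one was lower in the Tbx3 arrays (log2 change -0.42, adjusted p = 0.0263 in limma), and the other had a change of 0.02 (adjusted p = 0.982), so these probes do not check the labels. The log base is not stated. Natural logs were inferred from the range of values, and if the base were 2, each log2 difference given here would shrink by a factor of 0.693 while p-values stayed the same.

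The adult globin, Alas2 and Slc4a1 probes had higher means in the Tbx3 atria, by 1.53-fold to 1.91-fold, while Tfrc was lower and Klf1 differed little. By limma, 2 of the 6 probes passed an adjusted p of 0.05, Slc4a1 upward and Tfrc downward. Of all 46114 probes, 3.45% were called in either direction, 1.77% upward and 1.68% downward. That share is lower than the share among bright probes, and 5 of the 6 members lay above the 75th percentile of brightness. With only probes above that percentile tested, 2073 were called, against 1592 over all probes, and Tfrc was the 1 member called. Neither the call of Slc4a1 nor that of Tfrc was firm. In every one of the 6 genes the groups overlapped, and the spread within groups was among the widest on the array for all but Klf1. The direction of the 4 higher genes held on every omission of 1 array, but its size rested in part on Control 4, in which all 4 were lowest.

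**Figure D1:**
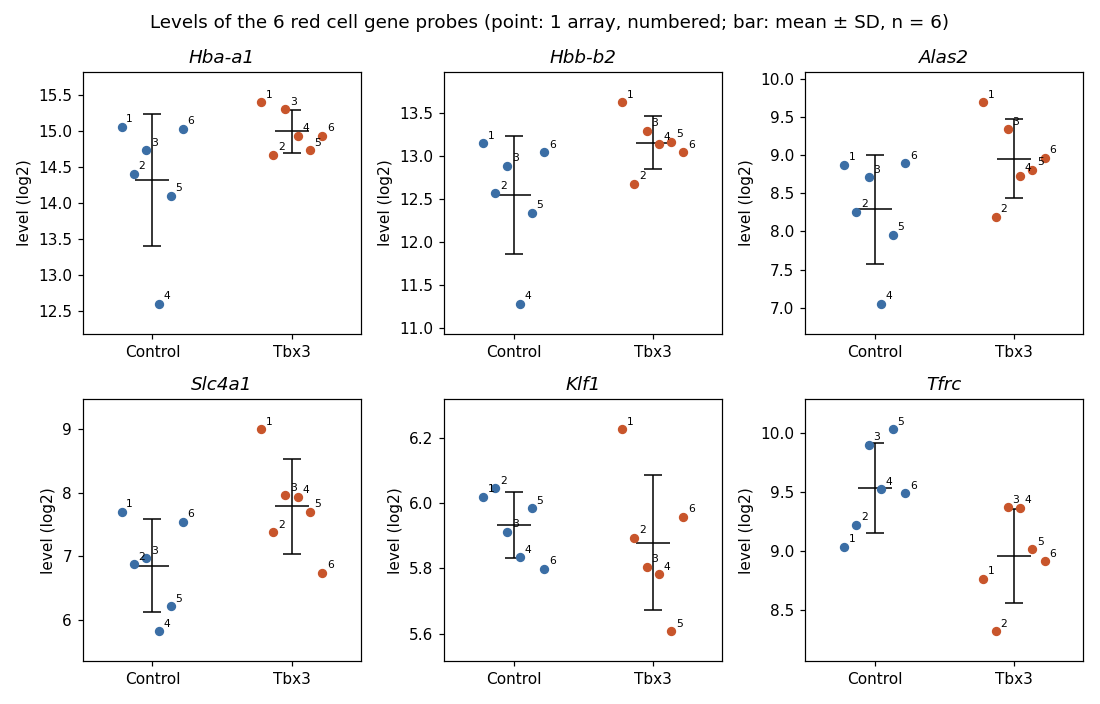
Level (log2) of each of the 6 probes in the 6 Control and 6 Tbx3 arrays. Each point is 1 array with its replicate number, and the bars give the mean ± SD (n = 6 each). Control 4 lies lowest and Tbx3 1 highest for Hba-a1, Hbb-b2, Alas2 and Slc4a1, and the groups overlap in all 6 genes.

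Hba-a1, the alpha chain (accession NM_008218, at position 32283672 to 32284486 of chromosome 11 in GRCm38.p6), ran from 12.59 in its lowest Control array over a median of 14.57 to 15.05, and from 14.66 over 14.93 to 15.40 in Tbx3. All 6 Tbx3 arrays lay above the Control mean, but 2 Control arrays, 1 and 6, lay above 4 of the Tbx3 arrays. The group means were 14.32 ± 0.92 in Control and 14.99 ± 0.30 in Tbx3 (SD, n = 6 each). The difference was 0.68 log2 (1.60-fold, SE 0.25, adjusted p = 0.184 in limma) and did not pass the test. Without Control 4 it was 0.32. The probe lay at the 99.97th percentile of brightness. Its level in Tbx3 1, 15.40, was the highest that the normalized arrays hold, a level that Myl4 also held in every Control array.

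Hbb-b2, the beta chain (NM_016956), ran from 11.28 over 12.73 to 13.14 in Control and from 12.67 over 13.15 to 13.62 in Tbx3. Again every Tbx3 array lay above the Control mean, and again the Control values reached well into the Tbx3 range. The means were 12.54 ± 0.69 and 13.15 ± 0.31 (SD, n = 6 each), a difference of 0.61 log2 (1.53-fold, SE 0.20, adjusted p = 0.111 in limma). It did not pass the test, and without Control 4 the difference was 0.36. The sequences of mouse beta-globin genes are nearly alike, so a probe for one may also bind the transcripts of another.

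Other probes for adult beta chains, on the list of haemoglobin genes but not members, gave the same picture. Hbb-bs had 9 probes, all of them lowest in Control 4 and highest in Tbx3 1. Their differences ran from 0.60 to 0.81 log2, all upward, with adjusted p from 0.04996 to 0.267 in limma, and 1 of the 9 passed the test. The Hbb-bt probe, whose accession (NM_008220) the annotation gives to that gene, had means of 8.69 ± 0.80 in Control and 9.29 ± 0.56 in Tbx3 (SD, n = 6 each, adjusted p = 0.296 in limma). The embryonic chains Hbb-y, Hbb-bh1 and Hba-x, which are made in the yolk sac, showed nothing of this. Their 4 probes lay between the 22.5th and 64.6th percentile of brightness and ranged over at most 0.70 log2 across the 12 arrays, with differences between groups from -0.05 to 0.15.

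Alas2, the erythroid enzyme of haem synthesis (NM_009653, chromosome X at 150547417 to 150570622), ran from 7.05 over 8.49 to 8.90 in Control and from 8.19 over 8.89 to 9.70 in Tbx3. One Tbx3 array, number 2, lay below the Control mean and the other 5 above it. The means were 8.29 ± 0.71 and 8.96 ± 0.52 (SD, n = 6 each), a difference of 0.67 log2 (1.59-fold, SE 0.23, adjusted p = 0.138 in limma) that did not pass the test. Without Control 4 the difference was 0.42.

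Slc4a1, the anion exchanger of the red cell membrane (NM_011403, chromosome 11 at 102348820 to 102365281), ran from 5.82 over 6.92 to 7.70 in Control and from 6.73 over 7.81 to 8.996 in Tbx3. The highest array, Tbx3 1, stood 9.04-fold above the lowest, Control 4, and Tbx3 6 lay below the Control mean. The level in Control 4, 5.82, was close to the median of all probes, 5.55, so background may limit the low end of this span. The means were 6.85 ± 0.73 and 7.78 ± 0.75 (SD, n = 6 each). Slc4a1 rose by 0.93 log2 in the Tbx3 atria (1.91-fold, SE 0.27, adjusted p = 0.0484 in limma). Omitting 1 array ended the call in 8 of 12 cases, namely each of Control 2 to 5 and each of Tbx3 1, 3, 4 and 5 (limma adjusted p as high as 0.175), with a difference of 0.73 without Control 4 and of 0.69 without Tbx3 1.

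Klf1, the regulator (NM_010635, chromosome 8 at 84901982 to 84905291), was the dimmest member, at the 70.1st percentile. It ran from 5.80 over 5.95 to 6.05 in Control and from 5.61 over 5.85 to 6.23 in Tbx3, which is close to the median of all probes, 5.55. The Tbx3 values lay on both sides of the Control values. The difference was -0.05 log2 (SE 0.10, adjusted p = 0.930 in limma), and its sign turned without Tbx3 5 (0.00026).

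Tfrc, the transferrin receptor (NM_011638, chromosome 16 at 32608896 to 32632794), ran from 9.04 over 9.51 to 10.03 in Control and from 8.32 over 8.96 to 9.37 in Tbx3. All 6 Tbx3 arrays lay below the Control mean, but Tbx3 3 and 4, at 9.37 each, lay above Control 1 and 2. The means were 9.53 ± 0.38 and 8.96 ± 0.40 (SD, n = 6 each). Tfrc fell by 0.58 log2 (1.49-fold, SE 0.16, adjusted p = 0.0381 in limma). Here too 8 of 12 omissions ended the call, those of Control 3 to 6 and of Tbx3 1, 2, 5 and 6 (limma adjusted p as high as 0.121), while the difference stayed between -0.67 and -0.45.

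The variance model mattered for these genes. The within-group SD lay between the 99.10th and the 99.91st percentile of all probes for 5 of the 6, and at the 32.4th for Klf1. Limma moves such wide variances towards those of the other probes, so that the SE of Slc4a1, 0.27, was smaller than the 0.43 that its own spread gives, and that of Tfrc 0.16 against 0.23. With a robust intensity trend in the variance, which shrinks outlying variances less, neither passed (adjusted p = 0.421 and 0.280 in limma). An exact permutation test of each gene alone over all 924 splits, 2-sided, added after seeing the data and not adjusted for the 6 tests, gave p = 0.0563 for Slc4a1, 0.0303 for Tfrc, 0.0498 for Hbb-b2, 0.0866 for Hba-a1, 0.0887 for Alas2 and 0.587 for Klf1.

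**Figure D2:**
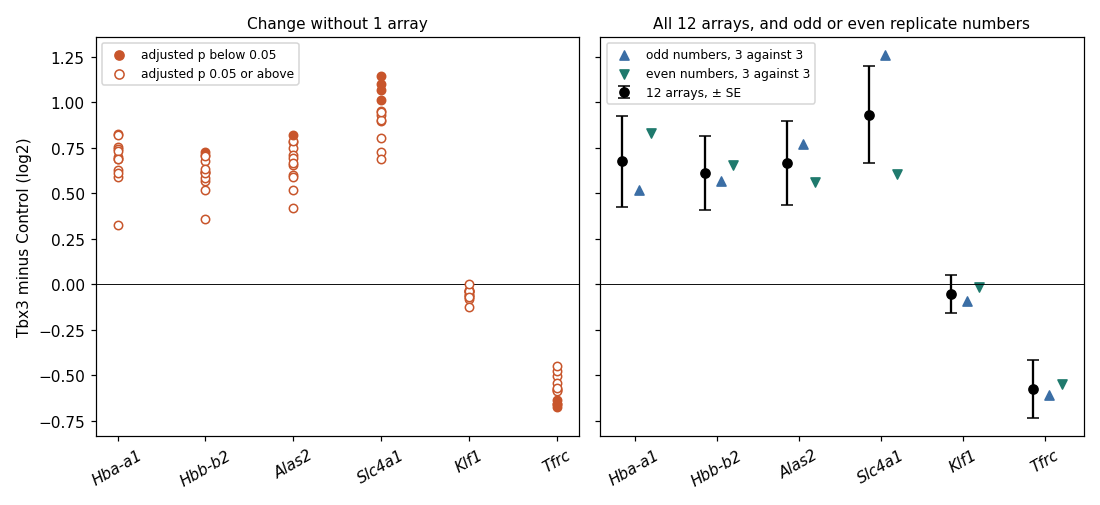
Difference between Tbx3 and Control (log2) of each gene. On the left, each point leaves out 1 of the 12 arrays, filled where the adjusted p was below 0.05. On the right, the difference over all arrays (± SE) stands beside those among odd and among even replicate numbers (3 arrays against 3). Hba-a1 drops to 0.32 without Control 4, and the odd and even differences have the same sign in every gene.

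The arrays were listed with the odd replicate numbers together and the even ones together, and no label says whether these shared a beadchip. The differences had the same sign in both. Among odd numbers they were 0.52 for Hba-a1, 0.57 for Hbb-b2, 0.77 for Alas2, 1.26 for Slc4a1, -0.09 for Klf1 and -0.61 for Tfrc. Among even numbers they were 0.83, 0.65, 0.56, 0.60, -0.01 and -0.55 in the same order.

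Hba-a1, Hbb-b2, Alas2 and Slc4a1 rose and fell together from array to array, and neither Klf1 nor Tfrc went with them. All 4 were lowest in Control 4, next to lowest in Control 5, next to highest in Tbx3 3 and highest in Tbx3 1. The deviations of Control 4 from the mean of the 12 arrays were -2.06 log2 for Hba-a1, -1.56 for Hbb-b2, -1.58 for Alas2 and -1.50 for Slc4a1. Those of Tbx3 1 were 0.74, 0.77, 1.08 and 1.68. From the lowest to the highest array, the level spanned 6.98-fold for Hba-a1, 5.06-fold for Hbb-b2, 6.28-fold for Alas2 and 9.04-fold for Slc4a1, against 1.54-fold for Klf1 and 3.28-fold for Tfrc. Without Control 4 the span was 2.47-fold for Hba-a1 and 2.43-fold for Hbb-b2, below that of Tfrc, and 3.35-fold for Alas2 and 6.89-fold for Slc4a1, with Klf1 and Tfrc as before.

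**Figure D3:**
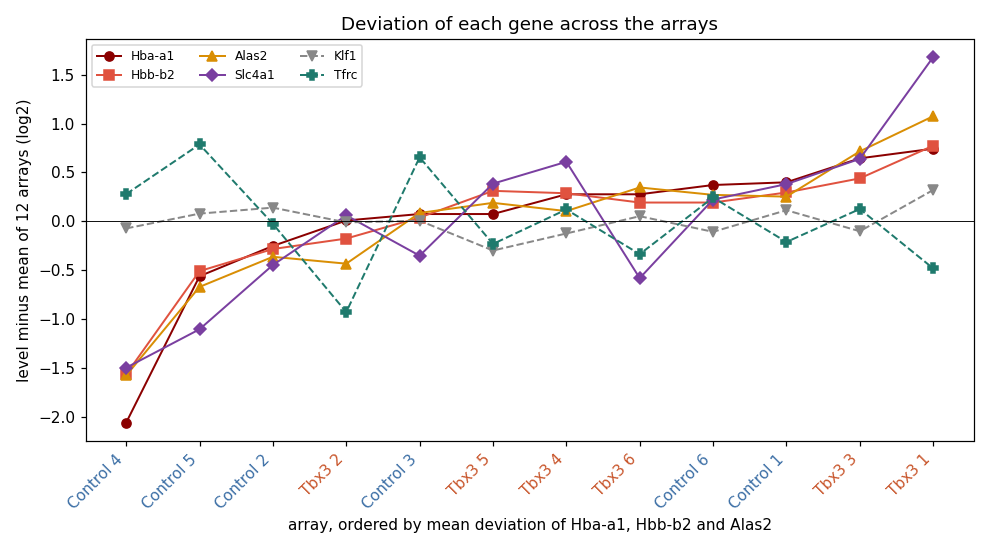
Deviation of each gene from its mean over the 12 arrays (log2), with the arrays ordered by the mean deviation of Hba-a1, Hbb-b2 and Alas2. These 3 genes and Slc4a1 (solid lines) climb together from Control 4 to Tbx3 1, where Slc4a1 reaches 1.68, while Klf1 and Tfrc (dashed lines) do not follow.

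The order of the arrays was not the order of the groups. By the mean deviation of Hba-a1, Hbb-b2 and Alas2, the 3 lowest arrays were Control 4 (-1.73), Control 5 (-0.58) and Control 2 (-0.30), followed by Tbx3 2 (-0.20) and Control 3 (0.07). Tbx3 5, 4 and 6 lay at 0.19, 0.22 and 0.27, beside Control 6 (0.28) and Control 1 (0.32). Tbx3 3 (0.60) and Tbx3 1 (0.86) were highest. The middle 7 arrays, from Tbx3 2 to Control 1, thus held 3 Control and 4 Tbx3 arrays. The SD was 0.77 among the Control arrays and 0.37 among the Tbx3 arrays, and without Control 4 that of the Control arrays was 0.39.

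Correlations were computed for the 15 pairs of the 6 genes over the 12 arrays, each with a 2-sided permutation test (100000 resamples) and Benjamini-Hochberg adjustment over the 15. All 6 pairs among Hba-a1, Hbb-b2, Alas2 and Slc4a1 passed, and none of the 9 pairs with Klf1 or Tfrc did. The highest Pearson r was that of Hba-a1 with Hbb-b2, the 2 chains of haemoglobin (r = 0.978, adjusted permutation p = 5e-05, from a raw p of 1e-05, the smallest these resamples can give, and Spearman rho = 0.898, adjusted permutation p = 0.00065). Hbb-b2 with Alas2 had r = 0.972 and rho = 0.879, and Hba-a1 with Alas2 had r = 0.945 and rho = 0.940. The pairs with Slc4a1 had lower Pearson r, 0.872 to Hbb-b2, 0.856 to Alas2 and 0.819 to Hba-a1 (adjusted permutation p up to 0.00158). By rank the order was another, with rho = 0.918 for Hbb-b2 with Slc4a1 and 0.818 for Hba-a1 with Slc4a1. The lowest rho among the 6 pairs was 0.713, for Alas2 with Slc4a1 (adjusted permutation p = 0.0293).

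The relation was also measured within groups and without single arrays. Within the 6 Control arrays the 6 pairs had r from 0.915 to 0.998 (exact permutation p from 0.00139 to 0.00278, unadjusted). Within the 6 Tbx3 arrays r ran from 0.638 to 0.951, and 3 of the 6 pairs, those among Hba-a1, Hbb-b2 and Alas2, had an exact permutation p under 0.05, while those with Slc4a1 had exact p from 0.0792 to 0.143. Among the odd replicate numbers r ran from 0.919 to 0.982 and among the even ones from 0.742 to 0.992. Without Control 4 the lowest of the 6 was 0.793, and all 6 passed on every omission of 1 array (adjusted permutation p up to 0.011). Without the 2 arrays farthest from the median of the first gene (Control 4 and 5, or Control 4 and Tbx3 1 for the pair Alas2 with Slc4a1), 5 of the 6 pairs passed. The exception was Alas2 with Slc4a1 (r = 0.647, adjusted permutation p = 0.109), which thus rests on those arrays.

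**Figure D4:**
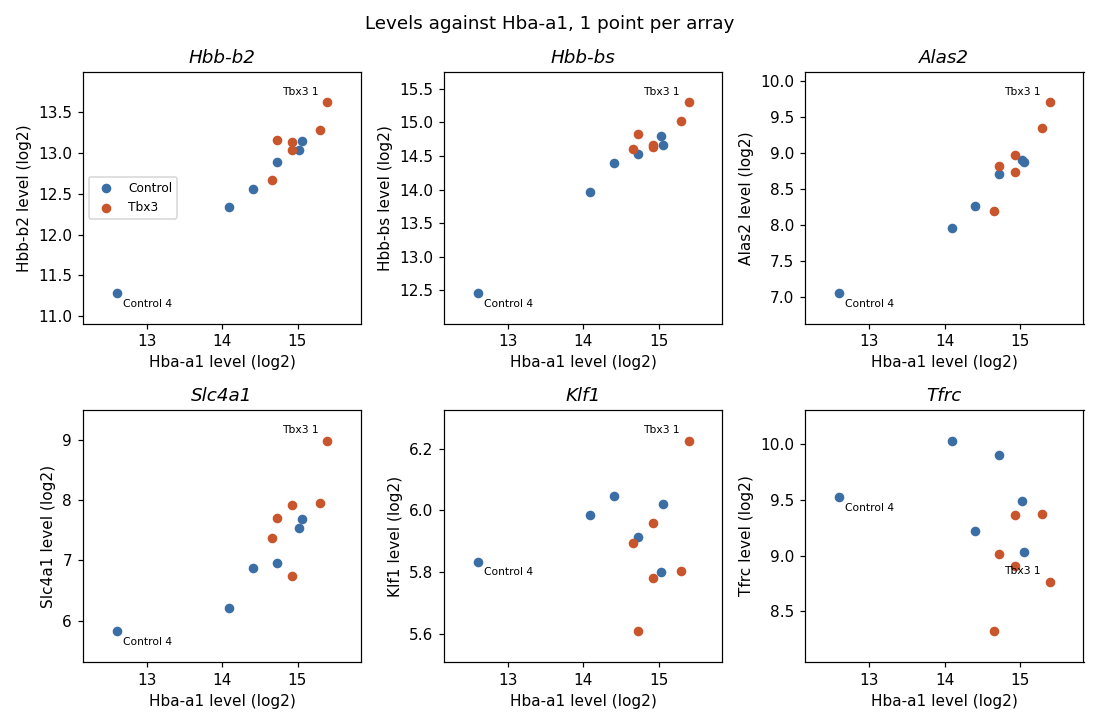
Level (log2) of Hbb-b2, Hbb-bs (its brightest probe), Alas2, Slc4a1, Klf1 and Tfrc against that of Hba-a1, 1 point for each of the 12 arrays. The globins, Alas2 and Slc4a1 climb with Hba-a1 (r = 0.978 for Hbb-b2), while Klf1 (r = 0.160) and Tfrc (r = -0.337) do not.

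The ratio of the 2 haemoglobin chains varied less than their levels. The log2 difference between Hba-a1 and Hbb-b2 had an SD of 0.20 over the 12 arrays, while the levels themselves had SDs of 0.74 and 0.60. Its largest departure from its mean was -0.49, in Control 4, and in the other 11 arrays it lay between -0.24 and 0.21. For Hbb-b2 against Alas2 the SD of the difference was 0.18. Against Slc4a1 it was wider, 0.49 for Hba-a1. The difference between Hba-a1 and Slc4a1 departed most from its mean in Tbx3 1 (-0.94) and Tbx3 6 (0.86).

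Tfrc had negative correlations with all 4 of these genes over the 12 arrays. Pearson r ran from -0.473 with Slc4a1 to -0.292 with Alas2 (adjusted permutation p from 0.256 to 0.531). Spearman rho ran from -0.455 to -0.354 (adjusted permutation p from 0.294 to 0.383). Within the Tbx3 arrays r with these 4 was positive, up to 0.440, and within Control it was negative, down to -0.518, with exact permutation p of 0.285 or more in each case. Among odd numbers r ran from -0.897 to -0.748 and among even ones from -0.326 to -0.148, and this difference was not tested. With the group means taken out, r over the 12 arrays ran from -0.18 to 0.04. Klf1 had r from 0.128 to 0.197 with the 4 (adjusted permutation p = 0.670 for each pair). In shared movement the label of red cell genes thus fitted Hba-a1, Hbb-b2, Alas2 and Slc4a1 and not Tfrc. Klf1 lay close to the median level of all probes, 5.55, and may be at background, so its flat signal cannot decide whether the label fits it.

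Other genes of red cell biology were taken from 6 lists, and r with the mean deviation of Hba-a1, Hbb-b2 and Alas2 over the 12 arrays describes how closely each followed. Of all 17652 genes other than the members, 216 (1.22%) had r over 0.7. Of 6 further haemoglobin genes measured, 2 had r over 0.7, Hbb-bs (0.974) and Hbb-bt (0.934). Both are nearly alike in sequence to Hbb-b2, a part of that mean deviation, so their high r is not independent of it. Of 19 red cell enzymes and genes of late red cells, 3 had r over 0.7. These were Mkrn1, a ubiquitin ligase (r = 0.895), Ube2l6, a conjugating enzyme of the ubiquitin-like protein Isg15 (0.793), and Bnip3l, which clears mitochondria from reticulocytes (0.716). Ube2l6 and Bnip3l were singled out after their values were seen. None of 12 further haem synthesis genes, 14 membrane and cytoskeleton genes, 13 regulators and 21 iron genes had r over 0.7. Some ran the other way. In the membrane list Rhd had r = -0.756 and Ank1 r = -0.712, both named after their values were seen. The 12 haem synthesis genes had a median r of -0.40. Genes with r under -0.7 were not counted over all genes. The highest among the regulators, which include Gata1, Tal1 and Gfi1b of nucleated precursors, was 0.376. Among 8 fibroblast markers 2 also had r over 0.7, Col3a1 (0.713) and Lum (0.703), named here after their values were seen.

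By the test between groups, 5.95% of 17658 genes were called in either direction. Each list held at most 2 called genes, and no list was tested against that share. In haem synthesis 0 of 13 rose and 2 fell, Alad, an early enzyme of the pathway (-0.47 log2, SE 0.10, adjusted p = 0.00573 in limma), and Uros, a later one (-0.39, adjusted p = 0.0467). The list's median change was -0.07, beside -0.0032 for all genes. Of 15 membrane and cytoskeleton genes Slc4a1 rose and Aqp1, a water channel also made by vessel lining, fell by 0.68 log2, with a list median of -0.04. Of 19 enzymes and late red cell genes Slc2a1, a glucose transporter, rose by 0.36 and Nt5c3, a nucleotidase, fell by 0.41, with a median of 0.07. Of 22 iron genes Tfrc alone was called, and the median was -0.03. None of 8 haemoglobin genes (median 0.37, and 0.11 without Hba-a1 and Hbb-b2) and none of 14 regulators (median 0.07) passed, with Ldb1 and Klf3, the brightest regulators, at 0.03 and 0.30.

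The 10 genes outside the members that followed the mean deviation most closely, of 11940 compared by their brightest probe, were taken without regard to function. Hbb-bs (r = 0.974) and Hbb-bt (0.934) came first, followed by Gpn2 (0.931), Mkrn1 (0.895), Cysltr1 (0.894), 2610318N02Rik (0.883), Mettl16 (0.879), Ntn4 (0.866), Chd3 (0.854) and Ddhd1 (0.847). Hbb-bs and Hbb-bt are nearly alike in sequence to Hbb-b2, which is part of the mean deviation, so their rank is not independent of it. After the group means were taken out, r lay at 0.965 for Hbb-bs, 0.920 for Hbb-bt, 0.909 for Gpn2, 0.858 for Mkrn1 and 0.797 for Chd3, the lowest of the 10. Of the 11940 genes, 3 had r over 0.9 and 2 had r under -0.9. All 10 named genes were lowest in Control 4. This follows largely from how they were chosen, since the mean deviation was -1.73 there and -0.58 or higher in every other array. None of the 10 passed the test between groups. Their size differed. Mkrn1 spanned 1.83 log2 over the 12 arrays and Hbb-bs 2.84, while Gpn2 spanned 0.83 and 2610318N02Rik 0.66.

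Markers of other blood cells showed no call. None of 9 platelet, 10 neutrophil, 7 lymphocyte and 7 macrophage and monocyte genes passed the test, with median changes of -0.04, -0.04, 0.06 and 0.04. Of all genes, 5.95% passed. In the same order, 6, 3, 4 and 1 of these genes lay below the median brightness of all probes, where a change may be missed. The 2 brightest genes of each list had the following r with the mean deviation and log2 change. The platelet genes Pf4 and Alox12 had r of 0.161 and 0.507 and changes of -0.07 and -0.08. The neutrophil genes S100a9 and S100a8 had r of -0.068 and 0.206 and changes of -0.07 and 0.06. The T cell genes Cd2 and Cd3d had r of -0.0885 and 0.145 and changes of 0.22 and -0.01. The macrophage genes Lyz2 and Mrc1 had r of 0.371 and 0.120 and changes of 0.17 and 0.08. The highest r in these 4 lists was 0.632, for the monocyte gene Cd14, singled out after its value was seen. In Control 4 the platelet list stood at 5.69, close to the low end of its Control range of 5.69 to 6.13, and the neutrophil list at 5.67, within its range of 5.57 to 5.79. Among 11 erythroid markers the mean level ran from 7.84 to 8.88 in Control and from 8.65 to 9.32 in Tbx3, and 1, Slc4a1, was called. This range largely restates the members, since the list holds Hba-a1, Hbb-b2, Alas2, Slc4a1 and Klf1, and also Hbb-bs and Hbb-bt. Its other markers, Epb42, Rhd, Kel and Gata1, had r of 0.147, -0.756, 0.201 and -0.321 with the mean deviation. A dim probe among them may lie at background.

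Some tissue markers moved between the groups. Of all 17658 genes, 524 rose and 527 fell. Of 9 atrial muscle genes 4 fell (list median change -0.26), Nppa (-1.35), Sln (-0.80), Ryr2 (-0.46) and Myh6 (-0.41), while Actc1 (-0.03) and Bmp10 (-0.02) changed little. The mean level of the list, in which Nppa and Sln had the largest changes, was lower in every Tbx3 array than in any Control array. Tbx3 1, the array with the most red cell signal, was lowest at 11.72. Of 8 fibroblast genes 2 rose (median change 0.29), with means from 9.54 to 10.12 in Control and from 9.57 to 10.29 in Tbx3, and of 9 endothelial genes 1 fell (median -0.15). The 2 brightest of each had changes of -0.24 for Myl4 and 0.08 for Tnnt2, 0.15 for Dcn and 0.35 for Col3a1, and 0.24 for Emcn and -0.36 for Esam, the endothelial gene that fell. Their part in the differences of the red cell genes was not tested.

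With the mean deviation of Hba-a1, Hbb-b2 and Alas2 as a covariate in limma, 916 of the 46114 probes passed in place of 1592, and 860 passed both. The covariate itself had means of 0.33 ± 0.37 in Tbx3 and -0.33 ± 0.77 in Control (SD, n = 6 each), so it partly stands for the group itself. How much of the fall in calls comes from this was not tested.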

How the data were processed

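The authors deposited a single table of log values, 1 per probe and array, taken here as natural log. Per the labels' protocols, column-purified total RNA (250 ng) was amplified and labelled with biotin. How the background was treated, how arrays were normalized and which log base was used are not stated. Of 46133 rows, 10 were empty and 9 repeated another row and were dropped. To reach log2 each value was divided by ln 2, and because interquartile ranges ran from 0.54 to 0.65 in deposited units the arrays were quantile normalized (limma 3.58.1, R 4.3.3). Groups and replicate numbers came from the sample titles.

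The fit was Tbx3 against Control over all probes (lmFit and eBayes, 2-sided, 28.4 degrees of freedom in total), p-values adjusted by Benjamini-Hochberg across the whole table, called at 0.05. Correlations used permutation tests (numpy 2.4.6, scipy 1.17.1). No pairing was used, because the labels do not pair the animals. Same-numbered arrays did not deviate together over all probes (r from -0.01995 to 0.0688). Over Hba-a1, Hbb-b2, Alas2 and Slc4a1 alone, r between same-numbered arrays ran from -0.40 to 0.90. That r rests on 4 values per array and takes out the level that the 4 genes share. It therefore cannot show whether same-numbered arrays share red cell signal. Symbols came from the platform annotation, updated through gene identifiers against RefSeq, with the brightest probe standing for each gene of a list. The members and lists were chosen with earlier results of these data known. Named genes were all members, up to 4 called genes or otherwise the 2 brightest of each list, the brightest markers of each cell type and the 10 closest genes. Alternatives were other normalizations, dim-probe filters, array weights, a robust intensity trend, blocks, single arrays left out and base 2. Detection was not tested, so a dim probe may lie at background.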

Additional observations from a re-analysis of the deposited data

Results flagged for a closer look

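The brightest of the 9 Hbb-bs probes stood apart in Control 4, at a log2 level of 12.46 against 13.96 in the next Control array, a gap of 0.641 of the range of the Control arrays, where 0.625 is the critical value for 6 samples. Chance alone marks about 1 group in 20. No other Hbb-bs probe passed this mark in Control 4. None of the members passed this mark, with Control 4 at 0.609 of the range for Hba-a1, 0.568 for Hbb-b2, 0.490 for Alas2 and 0.209 for Slc4a1.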

How the results depend on the processing

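The number of members called, 2 with all arrays, was 1 with each dim-probe filter, 0 with the robust intensity trend, 1 among odd and 0 among even replicate numbers, 0 when probes of each gene were averaged (over fewer features), and 0 to 3 when 1 array was left out. Leaving out Control 4 and Tbx3 6 together, chosen after seeing the data, gave 1. With the replicate number as a block 5 were called, all but Klf1, but the labels do not pair the animals and 1 of 6 numbers had its best match in its own. With 1 array left out Klf1 ran from -0.1233 to 0.00026, the latter without Tbx3 5. All 6 correlated pairs passed under both other normalizations and 5 without the 2 farthest arrays. The number of all probes called, 1592, was 935 among odd and 290 among even numbers (fewer samples), 916 with the red cell covariate and 1208 to 1619 without 1 array. With only probes above the median brightness tested it was 1858, and with only those above the 75th percentile 2073. With 1 array left out, calls ran from 0 to 1 for haemoglobin genes, 1 to 2 for haem synthesis, 1 to 3 for membrane genes, 0 to 1 for regulators, 1 to 3 for enzymes and 0 to 1 for iron genes. In the table as deposited haem synthesis and regulators had 1 call each. Except where given, the cause was not tested.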
